A study of Mus musculus with 22 samples.

Results

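Cells sorted by a collagen reporter from osteogenic cultures of mouse embryonic stem cells (ESC) were compared with the undifferentiated ESC, across all genes with a base mean of 10 normalised reads or more. That minimum kept 14749 of the 19781 genes that the authors' deposited table of the comparison lists. The base mean is the authors' mean of normalised reads over the 9 libraries of their fit. Both groups came from cells carrying Col2.3GFP, a transgene that puts green fluorescent protein (GFP) under part of the promoter of type I collagen, so the sort selected cells by the activity of that fragment. The ESC group (3 samples, day 0, passages 20 to 30) was kept on mouse embryonic fibroblast feeders or in serum-free medium without feeders. The sorted ESC-OB GFP+ group (3 samples, no passage given) held GFP-positive cells taken at 35 to 40 days of differentiation. After withdrawal of LIF, PD0325901 and CHIR99021, the cells had spent 6 days as embryoid bodies, with retinoic acid at 0.1 µM between days 3 and 5, before osteogenic medium. Another group of the same fit, unsorted ESC-OB (3 samples, passages 20 to 30, 35 to 40 days), is set beside the sorted cells where it helps. These groups belong to a series of 22 samples. Separate cultures are not stated for the replicates, and the p-values therefore cover the spread among the libraries used, which may be technical. Libraries were made with a standard messenger RNA kit or an ultra-low-input kit. The sources used here do not give which library had which, so kit and group cannot be told apart.

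Undifferentiated ESC are held in a self-renewing state by a network of transcription factors built around Pou5f1, Sox2 and Nanog. Osteoblasts arise from mesenchymal or neural crest precursors under the transcription factors Runx2 and Sp7, with BMP, Wnt, hedgehog and FGF signals feeding into that step. They secrete a matrix of type I collagen and later mineralise it. Embryoid bodies form derivatives of all germ layers, so epithelial, cardiac, neural and other cells can arise beside bone cells in the same culture. Type I collagen is also made by fibroblasts, tendon cells and other stromal cells.

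The sorted cells differed from ESC over most of the transcriptome. Of 14730 genes given an adjusted p by the authors' deposited table, 6592 rose (44.8%) and 5492 fell (37.3%) at an adjusted p under 0.05 in DESeq2's Wald test. A positive log2 fold change is taken as higher in the sorted cells, a direction read from the negative values of Pou5f1, Nanog and Esrrb. The rises were the larger changes: their median log2 fold change was 2.35, against -1.62 for the falls, per the authors' deposited table. At a size of at least 5 on the log2 scale, 1465 genes rose and 370 fell, and at a size of at least 8 the counts were 403 and 131. The median log2 fold change over all genes was 0.21 per the authors' deposited table, and a change smaller than that shift says nothing about a gene relative to the others. Just outside the minimum, with a base mean from 9 to 10, 86 of 135 had an adjusted p under 0.05 and the median log2 fold change was 0.98 per the authors' deposited table. Just inside it, from 10 to 11, these were 100 of 162 and 0.43 per the authors' deposited table.

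Depth, ribosomal RNA and transcript length differed with the groups. The sorted libraries were estimated at 22.4 to 30.1 M reads and the ESC libraries at 4.49 to 19.5 M. Each estimate is the sum of base means times the library's size factor, the divisor that normalises its reads. The size factors were read from the lowest base means, and the reads of a library were not counted. The ribosomal transcript Rn45s took 6.51% of the reads in ESC, 8.26% in unsorted ESC-OB and 0.443% in sorted cells. Among the 3663 genes with the shortest transcripts (66 to 2166 bases), 49% rose and 32.3% fell per the authors' deposited table. Among the 3664 with the longest (4768 to 123179 bases), 37.7% rose and 44.2% fell per the authors' deposited table. The part of these differences in the results was not tested. Levels for each group are estimates in normalised reads, worked out from the base mean and the authors' fold changes, and carry no error. They are comparable between groups for 1 gene, not between genes. A level worth 3 reads over a whole group, the floor used here, is 1.22 normalised reads in ESC, 1.28 in unsorted ESC-OB and 0.459 in sorted cells, and covers counting error only. Of the rises, 785 lay under the floor in ESC, and their folds are fitted values and not bounds.

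**Figure D1:**
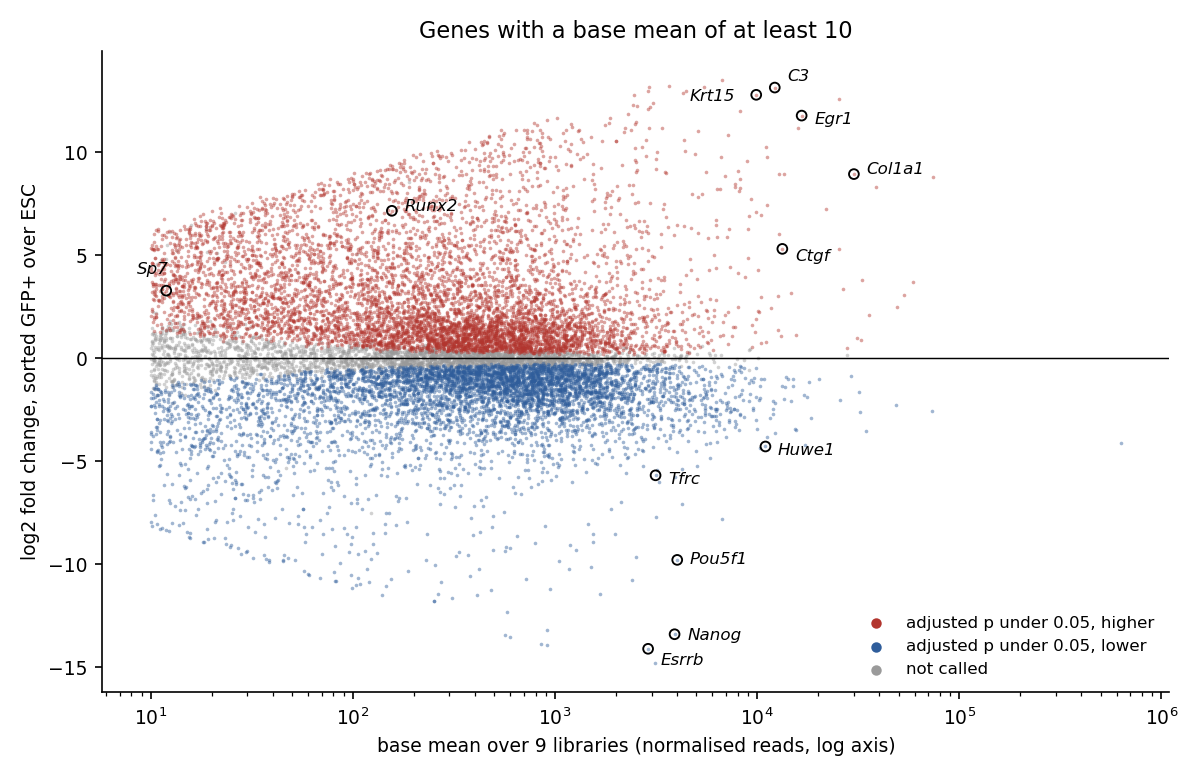
Log2 fold change (sorted GFP+ over ESC, vertical axis) against base mean over 9 libraries (normalised reads, log axis), each point a gene at or above the base mean minimum of 10. Red genes rose, blue fell and grey were not called at an adjusted p under 0.05 per the authors' deposited table, and named genes are ringed, with Esrrb and Nanog at the lower edge and C3, Krt15 and Egr1 at the upper edge.

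The largest rises above the floor in both groups were mostly of secreted and epithelial genes. The complement component C3 rose from an estimated 1.67 to 15202 normalised reads, by 13.15 ± 0.77 (SE) on the log2 scale per the authors' deposited table (adjusted p = 2.60e-63). Upk1b, a tetraspanin of urothelium and mesothelium, rose by 12.97 ± 0.87, and the basal keratins Krt15 and Krt14 by 12.80 ± 0.62 and 12.18 ± 0.76 per the authors' deposited table. The collagen chain Col1a2 rose by 12.58 ± 0.49, the collagen cross-linking enzyme Lox by 12.00 ± 0.57 and the mineralisation inhibitor Mgp by 11.46 ± 0.96 per the authors' deposited table. Psca, a surface antigen of epithelia, Egr1, an immediate early transcription factor, and Hp, the haemoglobin-binding protein haptoglobin, rose by 12.09 ± 1.04, 11.79 ± 0.35 and 11.41 ± 0.75 per the authors' deposited table. The largest falls included genes of the pluripotent state and of transposon silencing. Esrrb and Nanog fell by 14.10 ± 0.77 and 13.39 ± 0.54, Lefty2 and Tdgf1, a Nodal inhibitor and a Nodal co-receptor, by 11.42 ± 0.45 and 10.75 ± 0.36, and Nr0b1 by 10.58 ± 0.66 per the authors' deposited table. Tdrd12, which acts in the piRNA pathway, fell by 11.23 ± 0.74 per the authors' deposited table. The zinc finger gene Zfp534 and 3 unnamed gene models, 2410141K09Rik, Gm13247 and Gm10324, complete the 10 largest falls, of which Zfp534 at 10.22 ± 0.42 was the smallest per the authors' deposited table. Zinc finger genes of this kind lie in clusters of similar copies, so reads may be split among them and their counts are uncertain.

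Ranked by the Wald statistic, the changes that stood furthest above their own error included other genes. On the rising side these were Ctgf, a matricellular protein (5.32 ± 0.11), App, the amyloid precursor protein (6.91 ± 0.16), Clu, the extracellular chaperone clusterin (8.96 ± 0.20), the simple-epithelium keratins Krt8 and Krt18 (8.22 ± 0.19 and 7.99 ± 0.20) and the immediate early genes Jun and Dusp1 (8.31 ± 0.20 and 6.30 ± 0.15) per the authors' deposited table. Rcn3, a calcium-binding protein of the endoplasmic reticulum, Gsn, which severs actin, and Timp2, an inhibitor of matrix metalloproteinases, rose by 6.45 ± 0.17, 8.28 ± 0.22 and 9.12 ± 0.25 per the authors' deposited table. On the falling side stood Pou5f1 (9.78 ± 0.21 lower), Tfrc, the transferrin receptor (5.68 ± 0.13 lower), and Dppa5a, an ESC marker (7.81 ± 0.22 lower) per the authors' deposited table. Dcp2, which removes messenger RNA caps, fell by 5.15 ± 0.12, and Fem1b, Huwe1 and Usp9x, which act in ubiquitin transfer or removal, by 3.20 ± 0.084, 4.28 ± 0.12 and 3.84 ± 0.11 per the authors' deposited table. Ticrr and Pole, which serve DNA replication, fell by 5.73 ± 0.16 and 5.06 ± 0.14, and the aminopeptidase Lap3 by 3.12 ± 0.087 per the authors' deposited table. Huwe1 and Usp9x fell in unsorted ESC-OB by 1.94 and 2.20 per the authors' deposited table of that comparison, which used the same ESC libraries. The difference between sorted and unsorted cells was not tested.

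The reporter's own gene and the bone formation factors Runx2 and Sp7 rose. Col1a1 was estimated at 124 in ESC, 28915 in unsorted ESC-OB and 61215 in sorted cells (normalised reads), and rose by 8.95 ± 0.32 per the authors' deposited table (adjusted p = 4.25e-172). Runx2, the factor that commits cells to the osteoblast lineage, was at 1.26 in ESC, 285 in unsorted ESC-OB and 181 in sorted cells, and rose by 7.17 ± 0.85 per the authors' deposited table (adjusted p = 8.99e-17). Sp7, which acts after Runx2, rose by 3.29 ± 1.05 per the authors' deposited table (adjusted p = 0.00293) from low levels of 2.55 to 25 normalised reads. Dlx5, an activator of Runx2 and Sp7, had a base mean below the minimum (2.66), with 0.415 normalised reads in ESC and 5.98 in sorted cells. Of the 18 osteoblast and osteocyte genes that passed the minimum, 13 rose (72.22%) and 1 fell (5.556%), with a median of 3.99 per the authors' deposited table. Over all genes with an adjusted p the shares were 44.8% and 37.3%. Of the markers of non-bone lineages past the minimum, 69.87% rose and 17.95% fell, with a median of 3.80 per the authors' deposited table. A gene silent in ESC passes the minimum through the other groups, so these counts describe only the members that passed. Pth1r, the receptor of parathyroid hormone, rose by 9.25 ± 0.44, and the phosphodiesterase Enpp1, which makes pyrophosphate, by 6.73 ± 0.71 per the authors' deposited table. Among the 18 osteoblast and osteocyte genes, 4 were not called, and the lowest change was -3.02 per the authors' deposited table. In the Runx family Runx1 and Runx3 also rose, and Cbfb fell, with a log2 fold change of -1.17 per the authors' deposited table.

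The upstream sequences of Runx2 and of 3 immediate early genes that rose in the sorted cells, Fos, Jun and Dusp1, are shown because these genes carry the changes in regulators described here. Each run holds the 250 bases before the RefSeq transcription start on GRCm38.p6, read 5′ to 3′ on the gene's strand, with matches to searched motifs in capitals.
Runx2: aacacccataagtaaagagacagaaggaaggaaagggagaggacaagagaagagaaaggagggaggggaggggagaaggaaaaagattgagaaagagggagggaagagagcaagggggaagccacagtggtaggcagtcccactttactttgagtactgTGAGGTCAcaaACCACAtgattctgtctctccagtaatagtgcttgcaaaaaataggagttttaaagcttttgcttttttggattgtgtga
Fos: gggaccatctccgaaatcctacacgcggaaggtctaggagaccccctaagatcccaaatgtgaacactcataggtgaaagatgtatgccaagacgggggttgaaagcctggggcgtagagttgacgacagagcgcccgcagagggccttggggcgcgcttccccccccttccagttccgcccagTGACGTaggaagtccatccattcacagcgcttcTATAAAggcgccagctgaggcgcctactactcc
Jun: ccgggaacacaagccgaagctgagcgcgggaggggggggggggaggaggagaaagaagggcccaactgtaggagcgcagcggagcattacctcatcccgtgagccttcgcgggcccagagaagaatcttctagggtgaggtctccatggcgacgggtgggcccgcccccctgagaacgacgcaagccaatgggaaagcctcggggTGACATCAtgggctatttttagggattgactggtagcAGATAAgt
Dusp1: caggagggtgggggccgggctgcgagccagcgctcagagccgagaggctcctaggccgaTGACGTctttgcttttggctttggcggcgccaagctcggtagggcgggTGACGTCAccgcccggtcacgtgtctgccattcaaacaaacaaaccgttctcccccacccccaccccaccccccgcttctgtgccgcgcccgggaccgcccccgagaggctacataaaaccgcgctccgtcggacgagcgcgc
They lie at chr17:44814628-44814877, minus strand (Runx2), chr12:85473640-85473889, plus strand (Fos), chr4:95052223-95052472, minus strand (Jun) and chr17:26508473-26508722, minus strand (Dusp1). Counted upstream from the start, Runx2 had an ATF and CREB match at 84 to 91 and a Runx match at 75 to 80. Fos had a CREB core at 61 to 66 and a TATA box match at 28 to 33. Jun had an ATF and CREB match at 38 to 45, a CCAAT box at 61 to 65 that is not in capitals, and a GATA match at 3 to 8. Dusp1 had an ATF and CREB match at 136 to 143, overlapped by CREB cores at 138 to 143 and 136 to 141, and a further CREB core at 186 to 191.

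Both strands of each 250-base window were searched for 14 motifs, and the share of all 27025 RefSeq promoter windows that hold each is given here. The windows held AP-1 (TGANTCA) in 6.87%, the ATF and CREB motif (TGACNTCA) in 7.59%, its core (TGACGT) in 6.56% and the Runx motif (TGTGGT) in 14.2%. Shares for Tead (CATTCC), the octamer (ATGCAAAT), Esrrb (TCAAGGTCA) and E2F (TTTCCCGC) were 12.6%, 1.61%, 0.366% and 0.929%. CCAAT, the TATA box (TATAAA), the forkhead motif (TGTTTAC), the letters AGATAA of the GATA motif and the STAT motif (TTCNNNGAA) were in 34.5%, 13%, 3.09%, 10.3% and 7.18%, and the CArG box in 1.4%. A match is a description of the letters and not evidence of binding.

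Transcription factor genes, taken by symbol and as 1 set, were split between rise and fall at shares near those of all genes. Of 897 genes, 724 passed the minimum, of which 295 rose (40.75%) and 302 fell (41.71%). Over all genes with an adjusted p the shares were 44.8% and 37.3%. The median log2 fold change of the 724 was -0.088 per the authors' deposited table. Re-centring on the median gene gave 276 rises and 338 falls. The balance turned to 318 rises and 286 falls when groups were scaled by their total reads, a setting added after seeing the data. The Zfp zinc fingers, many of which repress transposable elements, made up 337 of the 724. Among them 73 rose (21.66%) and 190 fell (56.38%), with a median of -0.71 per the authors' deposited table. The shares of the whole set therefore do not describe the other families. Zfp42, the ESC marker also called Rex1, fell by 6.98 ± 0.38 and Zfp600 by 9.33 ± 0.38 per the authors' deposited table. Zfp36, counted here by its symbol alone, destabilises messenger RNAs of cytokines and is an immediate early gene. It rose by 8.14 ± 0.30 per the authors' deposited table.

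Most members past the minimum fell in the POU, Sall, E2F and Myb, and Gli and Zic families. In the POU family 2 rose and 5 fell of 8 members past the minimum, Pou5f1 among the falls, with levels of 12020.2 in ESC, 26.7 in unsorted ESC-OB and 13.7 in sorted cells (normalised reads). Sox2, its partner, fell by 5.16 ± 0.18, and of the nuclear receptors of ESC, Nr5a2 fell by 9.33 ± 0.41 per the authors' deposited table. Of the Sall zinc fingers, which act with Pou5f1, 3 of 4 fell, Sall1 by 5.07 ± 0.23 and Sall4 by 3.58 ± 0.24 per the authors' deposited table. In the E2F and Myb families, which drive the cell cycle, 0 rose and 12 fell of 13 members past the minimum, with a median of -2.53 per the authors' deposited table. E2f3 fell by 4.01 ± 0.17, Mybl2 by 3.43 ± 0.28 and E2f1 by 2.53 ± 0.13 per the authors' deposited table, and E2f6, a repressor, was at 0.12 ± 0.13 without a call. Mki67, the proliferation antigen, was estimated at 6959 in ESC, 991 in unsorted ESC-OB and 188 in sorted cells (normalised reads). Of the Gli and Zic factors 2 rose and 6 fell of 10 members past the minimum, and Gli1, a target and effector of hedgehog signalling, fell by 3.29 ± 0.47 per the authors' deposited table. Of the Myc and Max network 5 rose and 4 fell of 10 members past the minimum. Of the Klf and Sp factors 11 rose and 10 fell of 21 members past the minimum, with Klf5, also of ESC, up by 0.60 ± 0.18 per the authors' deposited table. The Wnt effectors Tcf7 and Tcf7l1 fell by 3.49 ± 0.39 and 1.27 ± 0.19, and Tcf7l2 rose by 3.13 ± 0.21 per the authors' deposited table. Of the Tead factors, which are the DNA-binding partners of Yap, Tead4, Tead1 and Tead2 fell by 2.44 ± 0.26, 2.39 ± 0.14 and 1.99 ± 0.14 and Tead3 rose by 1.96 ± 0.23 per the authors' deposited table. In unsorted ESC-OB Tead1 was at 0.27 ± 0.13 per the authors' deposited table of that comparison.

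Most members past the minimum rose in the AP-1 and ATF, interferon regulatory factor, Stat, Id, and Hes and Hey families. Of the AP-1 and ATF families 22 rose and 4 fell of 31 members past the minimum, with a median of 4.23 per the authors' deposited table. Their summed share of estimated reads was 0.0837% in ESC, 0.533% in unsorted ESC-OB and 0.974% in sorted cells. Fos, whose protein pairs with Jun to form AP-1, was estimated at 18.1 in ESC, 10782 in unsorted ESC-OB and 22297 in sorted cells (normalised reads), and Jun at 51.1 in ESC, 6914 in unsorted ESC-OB and 16199 in sorted cells. The changes were 10.27 ± 0.29 for Fos, 9.21 ± 0.45 for Fosb, 7.74 ± 0.29 for Junb and 7.50 ± 0.26 for Atf3 per the authors' deposited table, all of them rises. The falls among these families were of Creb1, Atf1, Atf2 and Mafa, by 1.22 ± 0.17, 0.75 ± 0.21, 0.96 ± 0.12 and 1.31 ± 0.58 per the authors' deposited table. Cebpb and Cebpd, which respond to inflammatory signals, rose by 6.85 ± 0.30 and 8.69 ± 0.66, and Cebpz fell by 2.39 ± 0.13 per the authors' deposited table. Of the interferon regulatory factors 8 rose and 0 fell of 8 members past the minimum: Irf7 rose by 7.42 ± 0.44 and Irf9 by 2.82 ± 0.16 per the authors' deposited table. Of the Stat factors 6 rose and 1 fell of 7 members past the minimum, and Stat4 fell by 3.02 ± 0.53 per the authors' deposited table. The NF-kappaB subunit Rela rose by 3.53 ± 0.15 per the authors' deposited table. The Id proteins, which block bHLH factors and are targets of BMP signalling, rose in 4 of 4 cases, from 1.81 ± 0.30 for Id4 to 6.35 ± 0.31 for Id2 per the authors' deposited table. Of the Hes and Hey factors, targets of Notch, 5 rose and 0 fell of 6 members past the minimum, Hes1 by 3.83 ± 0.12 per the authors' deposited table.

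Developmental factors of the forkhead, paired-like and T-box families moved in both directions. Of the forkhead genes 18 rose and 10 fell of 31 members past the minimum. The endoderm factors Foxa1 and Foxa2 rose by 8.77 ± 0.69 and 7.79 ± 0.73, the mesenchymal factors Foxc1 and Foxd1 by 7.45 ± 0.38 and 6.69 ± 0.51, and Foxq1 by 9.05 ± 0.59 per the authors' deposited table. Foxh1 and Foxd3, which act in pluripotent cells, fell by 9.42 ± 0.78 and 7.19 ± 0.63 per the authors' deposited table. Gata4 and Gata6, factors of heart and endoderm, rose by 6.16 ± 0.38 and 8.36 ± 0.48, and Sox17, of endoderm and vessels, by 9.25 ± 0.65 per the authors' deposited table. Sox9, the master factor of cartilage that is also active in many epithelia, rose by 9.69 ± 0.93, or 9.34 with its ESC level raised to the floor per the authors' deposited table. Of the paired-like homeobox genes 7 rose and 3 fell of 10 members past the minimum. The limb and craniofacial mesenchyme factors Prrx2 and Pitx1 rose by 7.60 ± 0.58 and 5.75 ± 0.57, and Otx2 and Hesx1, of ESC and anterior neural tissue, fell by 3.83 ± 0.46 and 7.97 ± 0.82 per the authors' deposited table. Prrx1 rose by 8.93 ± 0.94, or 8.63 with its ESC level raised to the floor per the authors' deposited table, with estimated levels of 0.991 in ESC, 994 in unsorted ESC-OB and 483 in sorted cells (normalised reads). Pax1, a factor of sclerotome and pharyngeal pouch, rose by 5.98 ± 0.43, and its paralog Pax9 by 8.08 ± 0.95, or 7.56 with its ESC level raised to the floor per the authors' deposited table. Of the T-box genes 6 rose and 5 fell of 11 members past the minimum. Tbx1, of pharyngeal arch and pouch, rose by 9.60 ± 0.92, or 9.15 with its ESC level raised to the floor, and Tbx3 and Eomes fell by 4.22 ± 0.29 and 3.96 ± 0.78 per the authors' deposited table. The bHLH factor Twist1, of mesenchyme, rose by 5.35 ± 0.41, and Olig1, of oligodendrocytes, fell by 9.35 ± 1.32, or 7.60 with its sorted level raised to the floor per the authors' deposited table. Trp63, the factor of stratified epithelia, rose by 7.37 ± 0.64 per the authors' deposited table.

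Hox and Smad genes were mixed, and most nuclear receptors past the minimum rose. Of the 36 Hox genes in the list, 27 lay below the minimum, and 4 rose and 2 fell of 9 members past the minimum. The anterior genes Hoxa2 and Hoxa3 rose by 4.21 ± 1.09 and 3.89 ± 0.77, and Hoxc13 and Hoxc4 fell by 4.63 ± 0.49 and 3.14 ± 0.74 per the authors' deposited table. Of the 9 Dlx and Msx genes, Msx2, a target of BMP in skull and limb, was the only one above the minimum, and it rose by 3.86 ± 0.52 per the authors' deposited table. Of the nuclear receptors 26 rose and 7 fell of 36 members past the minimum. The retinoic acid receptor Rarb, itself a target of retinoic acid, rose by 6.85 ± 0.59, Nr2f2 by 6.68 ± 0.45 and Nr4a1, an immediate early gene, by 5.91 ± 0.31 per the authors' deposited table. Vdr, the vitamin D receptor, rose by 1.97 ± 0.33 per the authors' deposited table. Among the Smad proteins that carry BMP and TGF-beta signals 3 rose and 1 fell of 8 members past the minimum, and 3 and 4 once the median gene was set to 0. Smad1 rose by 2.12 ± 0.14 and Smad9 fell by 2.08 ± 0.46 per the authors' deposited table. All 4 nuclear factor I genes rose, Nfia by 6.20 ± 0.42 per the authors' deposited table.

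**Figure D2:**
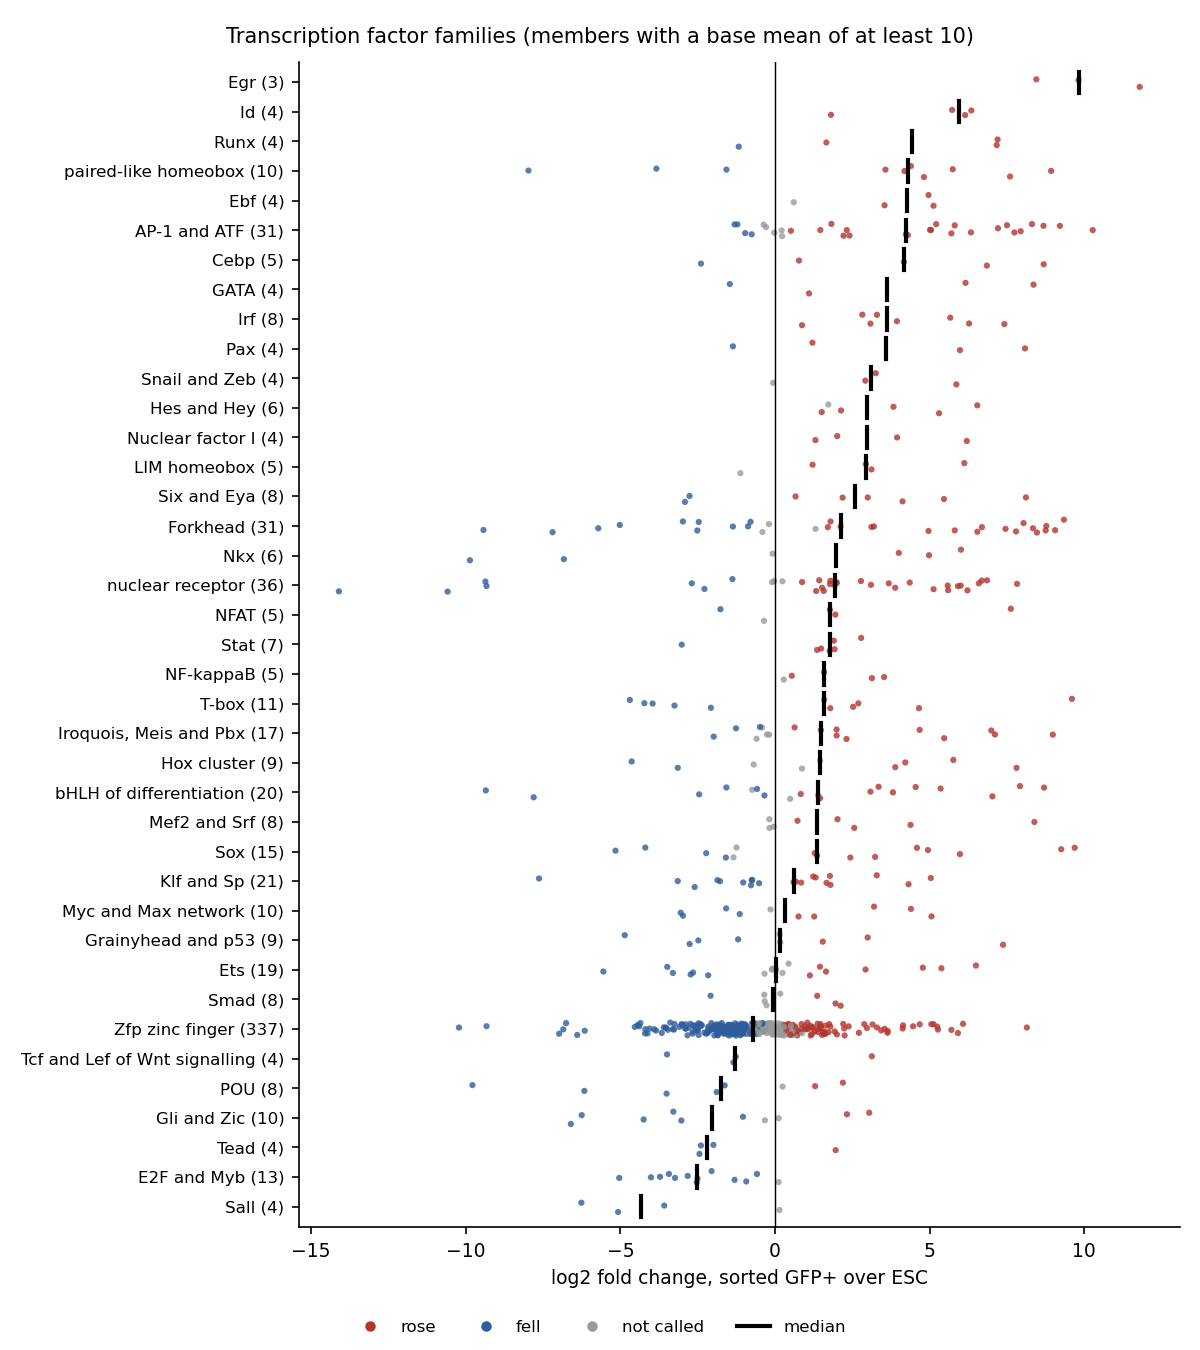
Transcription factor families with at least 3 members past the minimum (number in brackets), by log2 fold change, sorted GFP+ over ESC. Each point is a gene, coloured by its call per the authors' deposited table, and bars are family medians, from Egr and Id at the top to E2F and Myb and Sall at the bottom.

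Genes of surface receptors and junctions that passed the minimum were mostly higher in the sorted cells. Of 820 listed receptor genes 442 passed the minimum, of which 310 rose (70.14%) and 67 fell (15.16%). Over all genes with an adjusted p the shares were 44.8% and 37.3%. The median of the 442 was 2.61, or 2.59 with levels raised to the floor per the authors' deposited table. The 378 others lay below the minimum, among them 143 of 145 olfactory and vomeronasal receptors. Since a gene silent in ESC passes the minimum through the other groups, these counts describe the members that passed and no others.

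Receptors of matrix came first. Of the integrins 18 rose and 2 fell of 24 members past the minimum. Itga8 rose by 8.42 ± 0.34, Itga11, a collagen-binding subunit of fibroblasts and osteogenic cells, by 7.66 ± 0.65, Itgb5 by 3.95 ± 0.15 and Itgb1, the common beta subunit, by 2.52 ± 0.13 per the authors' deposited table. Itgb4, the hemidesmosome subunit of basal epithelium, rose by 4.27 ± 0.20, and the leukocyte subunit Itgal fell by 5.02 ± 0.45 per the authors' deposited table. Cd44, a hyaluronan receptor, rose by 6.54 ± 0.51, and the syndecan Sdc1 by 3.39 ± 0.25 per the authors' deposited table. Among claudins and other tight junction genes 23 rose and 3 fell of 28 members past the minimum: Cldn1 rose by 9.36 ± 0.78, Cldn7 by 6.40 ± 0.39 and Ocln by 6.23 ± 0.35, and Jam2 fell by 4.22 ± 0.18 per the authors' deposited table. Of cadherins and protocadherins 45 rose and 7 fell of 61 members past the minimum. Cdh1, the epithelial cadherin that ESC also carry, fell by 0.68 ± 0.24, and the neural cadherin Cdh2 was at -0.45 ± 0.33 without a call per the authors' deposited table. Cdh5, of endothelium, rose by 6.24 ± 0.83 per the authors' deposited table, with levels of 1.27 in ESC, 868 in unsorted ESC-OB and 96.1 in sorted cells (normalised reads).

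Most receptor tyrosine kinases past the minimum rose, and receptors of TGF-beta, BMP and Wnt signals were mixed. Of the receptor tyrosine kinases 31 rose and 3 fell of 39 members past the minimum, with a median of 2.70, or 2.61 with levels raised to the floor per the authors' deposited table. The PDGF receptor of mesenchyme, Pdgfra, rose by 7.54 ± 0.32, Fgfr3 by 6.70 ± 0.34, Axl by 6.46 ± 0.24, Egfr by 4.49 ± 0.28 and Flt1, a VEGF receptor, by 7.57 ± 0.43 per the authors' deposited table. Kit, which is expressed in ESC, was estimated at 2386 in ESC, 4652 in unsorted ESC-OB and 2708 in sorted cells (normalised reads), and its change of 0.18 ± 0.30 per the authors' deposited table missed the threshold (adjusted p = 0.592). Receptors of the TGF-beta and BMP family were mixed, and 6 rose and 4 fell of 13 members past the minimum. Tgfbr2 rose by 5.72 ± 0.20, the type I BMP receptor Bmpr1b by 4.75 ± 0.44 and Acvrl1 by 4.37 ± 0.37, while Acvr1b and the co-receptor Eng fell by 2.95 ± 0.19 and 3.22 ± 0.25 per the authors' deposited table. In unsorted ESC-OB Acvr1b was at 0.80 ± 0.17 per the authors' deposited table of that comparison. Bmpr1a and Bmpr2 were at -0.28 ± 0.14 and 0.079 ± 0.21 per the authors' deposited table, and neither was called. Of the Wnt and related receptors 14 rose and 6 fell of 28 members past the minimum. Fzd1 rose by 8.30 ± 0.44 and Lgr5, an R-spondin receptor of stem cells, by 9.65 ± 0.92, or 9.36 with its ESC level raised to the floor per the authors' deposited table. Fzd10 fell by 5.55 ± 0.40, Lrp5, a Wnt co-receptor that sets bone mass, by 2.62 ± 0.17, and the hedgehog receptor and target Ptch1 by 3.30 ± 0.26 per the authors' deposited table. Lrp5 was at 1.34 ± 0.16 in unsorted ESC-OB per the authors' deposited table of that comparison. Of the 4 Notch receptors 0 rose and 2 fell, and Notch4 fell by 4.41 ± 0.37 per the authors' deposited table.

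Receptors of cytokines and other immune signals were also mostly higher. Of interleukin and cytokine receptors 30 rose and 3 fell of 39 members past the minimum, with a median of 2.71 per the authors' deposited table. Osmr, the receptor of oncostatin M, rose by 9.57 ± 0.71, Ghr, the growth hormone receptor, by 8.11 ± 0.56, Il11ra1, whose ligand acts on bone formation, by 6.24 ± 0.34, and Ifngr2 by 5.22 ± 0.23 per the authors' deposited table. Crlf3 and Il2rg fell by 1.66 ± 0.14 and 1.43 ± 0.42 per the authors' deposited table. Of the TNF receptors 14 rose and 6 fell of 23 members past the minimum: Fas rose by 7.78 ± 0.79 and Tnfrsf12a by 5.54 ± 0.21, and Ngfr fell by 3.01 ± 0.31 per the authors' deposited table. Tnfrsf11b, the decoy receptor osteoprotegerin that osteoblasts release against osteoclast formation, rose by 9.15 ± 1.17, or 7.86 with its ESC level raised to the floor per the authors' deposited table. Of the other G protein-coupled receptors 80 rose and 22 fell of 119 members past the minimum. Casr, the calcium-sensing receptor, fell by 7.31 ± 0.89 per the authors' deposited table.

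Genes of secreted proteins that passed the minimum were mostly higher in the sorted cells. Of 783 listed genes 543 passed the minimum, of which 435 rose (80.11%) and 50 fell (9.208%), against 44.8% and 37.3% of all genes with an adjusted p. Of the 543, 131 lay under the floor in ESC and 6 in sorted cells, so the counts describe the members that passed and no others. The median of the 543 was 5.19, or 4.76 with levels raised to the floor per the authors' deposited table. The 783 listed genes took 1.12% of the estimated reads in ESC, 10.3% in unsorted ESC-OB and 10.5% in sorted cells. The prolactin family had no member above the minimum.

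Most matrix genes past the minimum rose. Of the collagens 38 rose and 2 fell of 42 members past the minimum, with a median of 6.31, or 5.79 with levels raised to the floor per the authors' deposited table. The fibrillar chains Col5a2 and Col3a1 rose by 9.81 ± 0.49 and 11.19 ± 0.90, Col6a1 and Col6a2 of beaded filaments by 10.84 ± 0.45 and 11.17 ± 0.69, and the basement membrane chain Col4a1 by 8.82 ± 0.30 per the authors' deposited table. Col2a1, the main collagen of cartilage, and Col18a1 fell by 0.83 ± 0.33 and 1.12 ± 0.10 per the authors' deposited table. Of the small leucine-rich proteoglycans, which bind collagen fibrils, 11 rose and 0 fell of 12 members past the minimum: Prelp rose by 11.20 ± 0.77, Lum by 10.55 ± 0.64, Ogn by 10.25 ± 0.60 and Bgn by 9.04 ± 0.44 per the authors' deposited table. Of the elastic fibre genes 22 rose and 0 fell of 23 members past the minimum, with elastin (Eln) up by 9.52 ± 0.51 per the authors' deposited table. Among matricellular and adhesive proteins 31 rose and 3 fell of 35 members past the minimum. Smoc2 rose by 10.77 ± 0.72, Thbs1 by 9.79 ± 0.44, periostin (Postn), of periosteum and other connective tissue, by 9.76 ± 0.61, and Cyr61, encoded by an immediate early gene, by 7.27 ± 0.21 per the authors' deposited table. Fibronectin (Fn1) fell by 1.02 ± 0.16 and the endothelial matrix gene Mmrn2 by 4.58 ± 0.31 per the authors' deposited table. Laminins were less uniform, and of the basement membrane genes 9 rose and 3 fell of 15 members past the minimum. Lamb3, a laminin chain of epithelia, rose by 6.68 ± 0.31 and perlecan (Hspg2) fell by 2.28 ± 0.13 per the authors' deposited table.

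Enzymes and inhibitors that remodel matrix followed. Of the matrix metalloproteinases and their inhibitors 15 rose and 1 fell of 19 members past the minimum. Mmp13, the collagenase of hypertrophic cartilage and osteoblasts, rose by 11.35 ± 1.23, Mmp2 by 8.48 ± 0.30 and Mmp14, which activates Mmp2, by 6.19 ± 0.21 per the authors' deposited table. Of the ADAMTS genes 19 rose and 1 fell of 22 members past the minimum: Adamts1 rose by 11.18 ± 0.64 and the procollagen peptidase Adamts2 by 7.05 ± 0.37 per the authors' deposited table. Of the serpins 22 rose and 1 fell of 32 members past the minimum, and Serpina3n, a protease inhibitor found in the osteoblast lineage, rose by 11.04 ± 0.55 per the authors' deposited table, a count that its close paralogs make uncertain. Serpinh1, the collagen chaperone Hsp47, rose by 3.02 ± 0.33 per the authors' deposited table.

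Signals known from bone and other organs rose together with their antagonists. Of the BMP, GDF, TGF-beta and activin genes 18 rose and 5 fell of 24 members past the minimum. Bmp2 rose by 8.92 ± 0.75, Tgfb2 by 8.18 ± 0.59 and Bmp1, a procollagen proteinase, by 6.66 ± 0.31 per the authors' deposited table. The falls were led by the Nodal pathway: Gdf3 fell by 13.51 ± 1.24, or 11.93 with its sorted level raised to the floor, and Nodal by 11.61 ± 0.96, or 10.98 with its sorted level raised to the floor per the authors' deposited table. Of the BMP and activin antagonists 13 rose and 0 fell of 13 members past the minimum, with a median of 6.71, or 6.33 with levels raised to the floor per the authors' deposited table. Nbl1 rose by 9.68 ± 0.57, Bmper by 8.31 ± 0.65, noggin (Nog) by 7.80 ± 0.64 and follistatin (Fst) by 6.71 ± 0.32 per the authors' deposited table. Of the Wnt ligands and R-spondins 13 rose and 0 fell of 14 members past the minimum: Wnt4 rose by 9.34 ± 0.59, Wnt9a by 6.55 ± 0.55 and Wnt7b, made by epithelia and osteoblasts, by 5.58 ± 0.33 per the authors' deposited table. Of the Wnt antagonists 8 rose and 0 fell of 11 members past the minimum. Dkk3 rose by 4.73 ± 0.20, and Sfrp1 was at 0.38 ± 0.23 without a call per the authors' deposited table. The hedgehog ligands Ihh, of growth plate and gut, and Dhh rose by 5.32 ± 0.79 and 4.86 ± 0.69 per the authors' deposited table, whereas Gli1 and Ptch1, the targets named above, fell. Of the FGF ligands 8 rose and 3 fell of 13 members past the minimum. Fgf18, of the osteoblast lineage and other tissues, rose by 5.35 ± 0.50, and Fgf21 by 7.17 ± 0.68, and Fgf4, an ESC ligand, fell by 13.85 ± 1.17, or 12.45 with its sorted level raised to the floor per the authors' deposited table.

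Of the IGF ligands and binding proteins 10 rose and 1 fell of 12 members past the minimum. Igf2 was estimated at 22.3 in ESC, 27529 in unsorted ESC-OB and 11002 in sorted cells (normalised reads) and rose by 8.95 ± 0.42, Igfbp7 by 10.03 ± 0.44 and Igfbp4 by 9.57 ± 0.36 per the authors' deposited table. Of the EGF family 8 rose and 0 fell of 10 members past the minimum, Tgfa by 6.97 ± 0.54 and the immediate early gene Hbegf by 5.27 ± 0.23 per the authors' deposited table. Of the chemokines 17 rose and 0 fell of 19 members past the minimum, with a median of 7.06, or 6.19 with levels raised to the floor per the authors' deposited table. Cxcl1, which draws neutrophils, rose by 11.11 ± 1.06, and Cxcl12, made by marrow stroma, by 8.72 ± 0.51 per the authors' deposited table. Of the interleukins and cytokines 14 rose and 2 fell of 18 members past the minimum: Csf1, which osteoclast precursors need, rose by 6.42 ± 0.36 and Il6 by 7.03 ± 1.24, and Osm fell by 8.19 ± 0.65 per the authors' deposited table. Of the complement genes 15 rose and 3 fell of 19 members past the minimum. Beside C3, Cfb rose by 6.52 ± 0.33, and properdin (Cfp) fell by 5.31 ± 0.35 per the authors' deposited table. Of the bone matrix glycoproteins and their neighbours 5 rose and 1 fell of 8 members past the minimum. Spp1, osteopontin, which ESC also transcribe, was estimated at 9323 in ESC, 3044 in unsorted ESC-OB and 6893 in sorted cells (normalised reads), and its change of -0.44 ± 0.31 per the authors' deposited table missed the threshold (adjusted p = 0.199). Bglap3, of the osteocalcin cluster, whose members share near-identical sequence, fell by 2.26 ± 0.70 per the authors' deposited table and is uncertain for that reason.

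**Figure D3:**
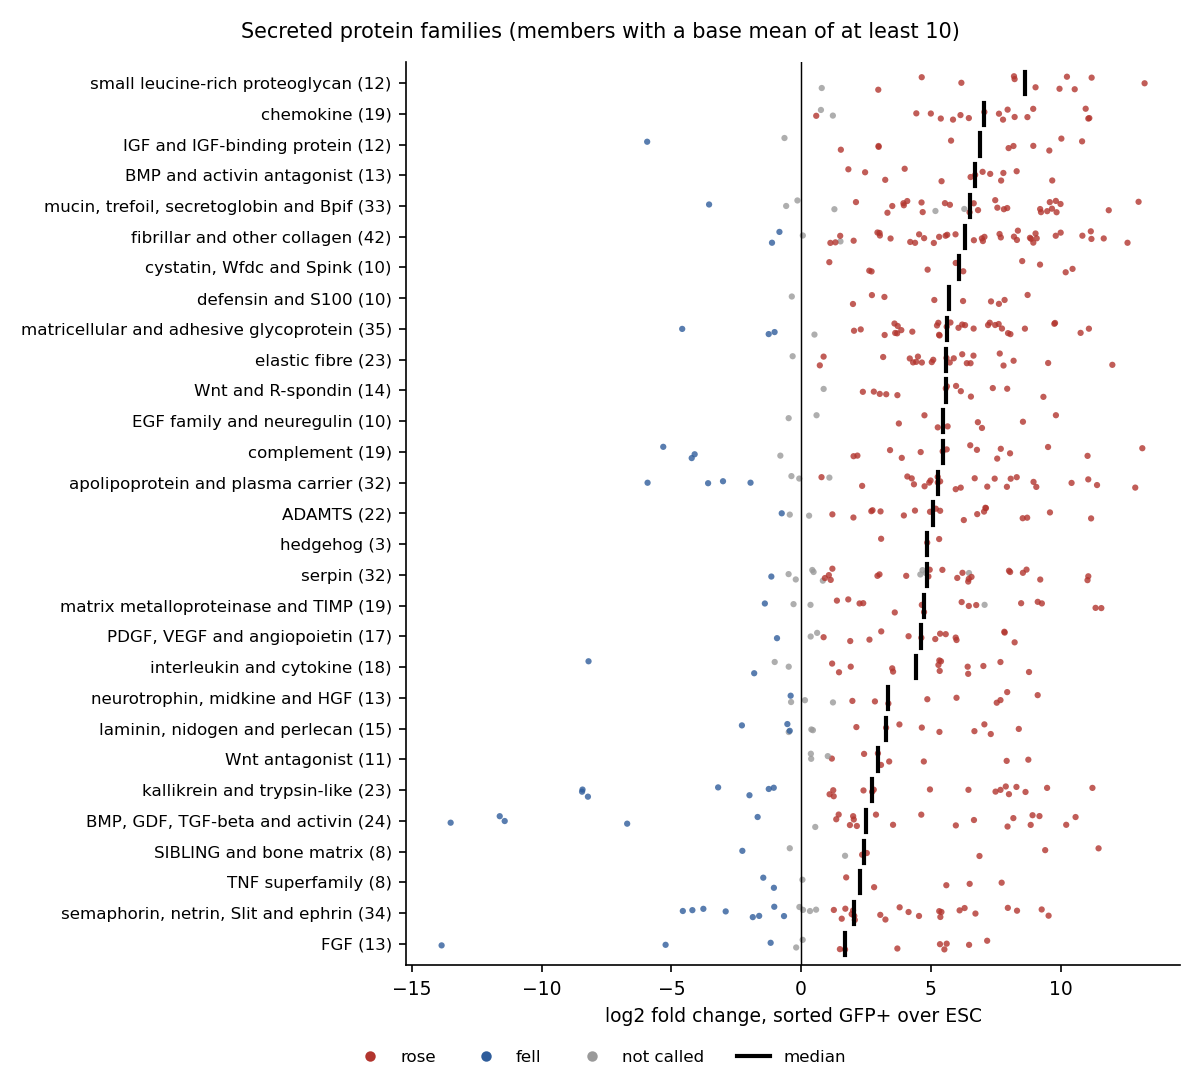
Families of secreted proteins, each with its number of members past the minimum in brackets, by log2 fold change, sorted GFP+ over ESC. Each point is a gene, coloured by its call per the authors' deposited table, and bars are family medians, which range from 8.63 for the small leucine-rich proteoglycans to 1.69 for the FGF ligands.

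Markers listed for lineages other than bone were transcribed in the sorted cells. Of 422 markers 312 passed the minimum, of which 218 rose (69.87%) and 56 fell (17.95%), against 44.8% and 37.3% of all genes with an adjusted p. Of the 312, 57 lay under the floor in ESC and 4 in sorted cells, so the counts describe the members that passed and no others. The 312 markers had a median of 3.80, or 3.60 with levels raised to the floor per the authors' deposited table. In unsorted ESC-OB their median was 3.90 against the same ESC libraries. The 422 markers took 0.347% of the estimated reads in ESC, 2.23% in unsorted ESC-OB and 3.37% in sorted cells. Lists of tendon, cartilage, marrow stroma and smooth muscle are included, and some of their genes are not confined to cells other than bone. The tendon list, with 0.48% of the reads in sorted cells, holds the immediate early gene Egr1. These are bulk libraries, so fewer cells of a type and less RNA per cell cannot be told apart.

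Most epithelial markers past the minimum rose. Of the squamous and basal epithelium list 19 rose and 0 fell of 20 members past the minimum, with a median of 7.36, or 7.30 with levels raised to the floor per the authors' deposited table, and the summed share of reads was 0.00614% in ESC, 0.297% in unsorted ESC-OB and 0.65% in sorted cells. Krt15, a keratin of basal cells, was estimated at 3.26 in ESC, 6422 in unsorted ESC-OB and 23239 in sorted cells (normalised reads), Krt14 at 1.46 in ESC, 2005 in unsorted ESC-OB and 6812 in sorted cells, and Krt5, the partner of Krt14, rose by 10.98 ± 0.70 per the authors' deposited table. Krt10, of the differentiated epidermis, was at 0.51 ± 0.56 without a call per the authors' deposited table. Of the simple epithelium list 18 rose and 1 fell of 20 members past the minimum, and its share was 0.08% in ESC, 0.309% in unsorted ESC-OB and 0.77% in sorted cells. Krt8 was estimated at 44.7 in ESC, 6346 in unsorted ESC-OB and 13339.6 in sorted cells (normalised reads). Krt7 and Krt19 rose by 9.91 ± 0.46 and 8.23 ± 0.36 per the authors' deposited table. Epcam, the cell adhesion molecule shared by ESC and epithelia, rose by 0.86 ± 0.21 per the authors' deposited table. Of the mesothelial list 10 rose and 1 fell of 11 members past the minimum, with a share of 0.00426% in ESC, 0.151% in unsorted ESC-OB and 0.434% in sorted cells. Msln, mesothelin, was at 253 in ESC, 7276 in unsorted ESC-OB and 19432 in sorted cells (normalised reads) and rose by 6.26 ± 0.37, while Lrrn4 fell by 1.41 ± 0.63 per the authors' deposited table. Upk1b was estimated at 1.24 in ESC, 3349 in unsorted ESC-OB and 9928 in sorted cells (normalised reads).

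Of the lung and airway list 13 rose and 0 fell of 14 members past the minimum, with a median of 8.41, or 7.97 with levels raised to the floor per the authors' deposited table and a share of 0.000686% in ESC, 0.144% in unsorted ESC-OB and 0.339% in sorted cells. Scgb1a1, the secretory protein of club cells, rose by 9.48 ± 0.93 and the water channel Aqp5 by 10.19 ± 0.73 per the authors' deposited table. The secretory gene Bpifa1, of nasal and airway epithelium, was estimated at 0.755 in ESC, 2434 in unsorted ESC-OB and 6216 in sorted cells (normalised reads), and rose by 13.01 ± 1.03, or 12.32 with its ESC level raised to the floor per the authors' deposited table. Its upstream 250 bases (chr2:154142630-154142879, plus strand, GRCm38.p6, RefSeq) are shown, since this gene had the second largest fitted rise of the airway list. They hold an AP-1 match at 149 to 155, a GATA match at 71 to 76 and a TATA box match at 24 to 29, in capitals, and CCAAT boxes at 79 to 83 and 53 to 57 that are not.
Bpifa1: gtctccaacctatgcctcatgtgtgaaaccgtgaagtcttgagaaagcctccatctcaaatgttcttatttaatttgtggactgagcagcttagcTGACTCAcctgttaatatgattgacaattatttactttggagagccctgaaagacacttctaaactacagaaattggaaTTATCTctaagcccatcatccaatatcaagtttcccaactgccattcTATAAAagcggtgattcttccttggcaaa
Nkx2-1, the factor that specifies lung and thyroid, rose by 6.01 ± 1.33, or 4.26 with its ESC level raised to the floor per the authors' deposited table, from a base mean of 16. Sftpb, of alveolar cells, was at 1.28 ± 1.11 without a call per the authors' deposited table. Of the ciliated cell list 13 rose and 1 fell of 18 members past the minimum, with Foxj1, the factor for motile cilia, up by 4.96 ± 0.39 per the authors' deposited table.

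Most endodermal and urogenital markers past the minimum rose. Of the liver and yolk sac list 14 rose and 1 fell of 23 members past the minimum, and 4 had no adjusted p. Apoa1 rose by 10.42 ± 0.98, transferrin (Trf) by 6.69 ± 0.35 and Hnf4a, a factor of liver and gut, by 1.58 ± 0.37 per the authors' deposited table. Of the intestine and stomach list 14 rose and 2 fell of 17 members past the minimum. The gastric gene Gkn2 rose by 9.85 ± 0.87, or 9.55 with its ESC level raised to the floor, and Cdx2, the factor of intestine and trophoblast, fell by 4.30 ± 1.01 per the authors' deposited table. Of 9 pancreas markers 8 lay below the minimum, and the 1 past it rose from a level under the floor in ESC. In the kidney and urogenital list 7 rose and 1 fell of 9 members past the minimum: Wt1, of mesothelium and kidney, rose by 2.89 ± 0.33 and the podocyte gene Nphs1 fell by 8.22 ± 0.64 per the authors' deposited table.

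Muscle and vessel markers were present at differing levels. Of the cardiac list 17 rose and 0 fell of 20 members past the minimum, with a median of 3.87, or 3.55 with levels raised to the floor per the authors' deposited table. Their share of reads was 0.00451% in ESC, 0.289% in unsorted ESC-OB and 0.0887% in sorted cells. Tnnt2, cardiac troponin T, was estimated at 25.5 in ESC, 4814 in unsorted ESC-OB and 2222 in sorted cells (normalised reads) and rose by 6.45 ± 0.45, Myh7 by 6.40 ± 0.44 and Myh6 by 3.81 ± 0.57 per the authors' deposited table. In unsorted ESC-OB the changes of Tnnt2, Myh7 and Myh6 were 7.56 ± 0.45, 9.53 ± 0.44 and 7.15 ± 0.57 per the authors' deposited table of that comparison. Of the smooth muscle and pericyte list 11 rose and 1 fell of 13 members past the minimum, with Acta2 up by 10.24 ± 0.57 and Tagln by 7.76 ± 0.48 per the authors' deposited table. Of the skeletal muscle list 7 rose and 2 fell of 14 members past the minimum: Acta1 rose by 7.06 ± 1.27 and Mylpf fell by 4.96 ± 0.44, and the regulator Myog was at 1.39 ± 1.08 without a call per the authors' deposited table. Of the endothelial list 10 rose and 3 fell of 13 members past the minimum. Flt1 and Cdh5, described above, rose, whereas Pecam1 and Eng, both expressed in ESC, fell, Pecam1 by 6.75 ± 0.37 per the authors' deposited table.

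Haematopoietic and lymphoid, neuronal and germ cell markers mostly fell or lay below the minimum. Macrophage and osteoclast markers past the minimum mostly rose. Of the 15 haematopoietic and lymphoid markers in the list, 9 lay below the minimum, and 0 rose and 5 fell of 6 members past the minimum, Lck by 3.04 ± 0.33 per the authors' deposited table. Of the 21 macrophage and osteoclast markers in the list, 10 lay below the minimum, and 9 rose and 1 fell of 11 members past the minimum: Cd14 rose by 9.69 ± 0.69, the collagenolytic protease Ctsk by 9.08 ± 0.81 and Csf1r by 7.63 ± 0.80, with Acp5, the osteoclast phosphatase, at -0.58 ± 0.31 without a call per the authors' deposited table. Csf1r was estimated at 1.26 in ESC, 362 in unsorted ESC-OB and 248 in sorted cells (normalised reads). Of the neuronal list 3 rose and 7 fell of 13 members past the minimum, and Tubb3 fell by 5.13 ± 0.34 per the authors' deposited table. Of the neural progenitor and glial list 6 rose and 7 fell of 14 members past the minimum, and 6 and 5 when groups were scaled by total reads. Gfap, of astrocytes, rose by 4.81 ± 0.95 per the authors' deposited table, with estimated levels of 4.84 in ESC, 1626 in unsorted ESC-OB and 136 in sorted cells (normalised reads). Of the neural crest and melanocyte list 4 rose and 4 fell of 10 members past the minimum, and 4 and 5 once the median gene was set to 0. Ednrb rose by 8.55 ± 0.79 and Mitf fell by 3.85 ± 0.22 per the authors' deposited table. Of the germ cell list 1 rose and 11 fell of 12 members past the minimum, Prdm14 and Dazl by 9.39 ± 0.49 and 8.65 ± 0.78 per the authors' deposited table. Of the trophoblast list 3 rose and 4 fell of 7 members past the minimum, in erythroid cells 1 rose and 1 fell of 2, and in mast cells and granulocytes 1 rose of 2 per the authors' deposited table.

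Most members past the minimum also rose in the lists of connective tissue lineages. Of the tendon and ligament list 11 rose and 0 fell of 11 members past the minimum: Scx, the tendon factor, rose by 3.81 ± 0.43 and Thbs4 by 7.98 ± 1.12 per the authors' deposited table. Of the cartilage list 12 rose and 2 fell of 16 members past the minimum. Col11a1 rose by 7.07 ± 0.44 and Col9a1 by 5.95 ± 0.96, and Acan, the aggregating proteoglycan of cartilage, fell by 1.20 ± 0.48 per the authors' deposited table. Of the adipocyte list 7 rose and 0 fell of 8 members past the minimum, with Pparg up by 6.22 ± 0.85, or 6.13 with its ESC level raised to the floor per the authors' deposited table. Of the marrow stroma and mesenchymal stem cell list 14 rose and 3 fell of 18 members past the minimum: Ly6a rose by 10.06 ± 0.45, Vcam1 by 9.48 ± 0.69 and Thy1 fell by 2.06 ± 0.64 per the authors' deposited table.

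**Figure D4:**
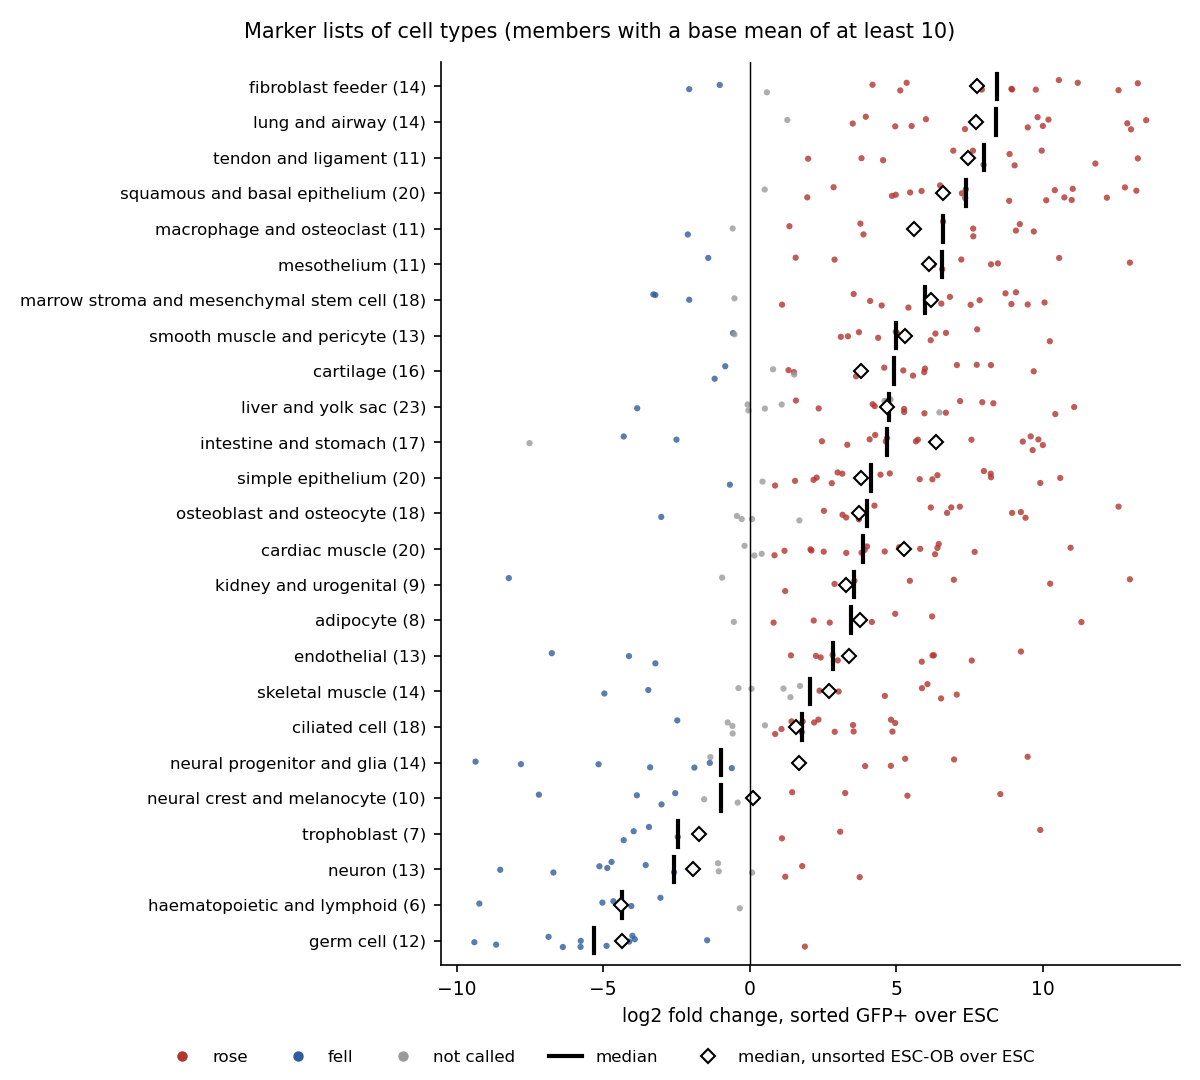
Marker lists of cell types (number of members past the minimum in brackets) by log2 fold change, sorted GFP+ over ESC. Points are genes coloured by their call per the authors' deposited table, bars are list medians, and diamonds are the medians of the same genes in unsorted ESC-OB, whose comparison shares the ESC libraries. Diamonds lie to the right of their bars in several lists, among them cardiac, neural progenitor, and intestine and stomach. They lie to the left in others, such as squamous and basal epithelium.

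Feeder fibroblasts and sex chromosomes were read as checks. Of the fibroblast list 11 rose and 2 fell of 14 members past the minimum, and its share of reads was 0.208% in ESC, 0.978% in unsorted ESC-OB and 1.63% in sorted cells. Osteoblasts express several of these genes, Col1a1 and Postn among them, so the list does not separate the cell types. Xist, the transcript of the inactive X chromosome, was estimated at 207 in ESC, 4279.5 in unsorted ESC-OB and 622 in sorted cells (normalised reads) and rose by 1.58 ± 0.29 per the authors' deposited table. Its antisense partner Tsix fell by 4.72 ± 0.86 per the authors' deposited table, and the 2 overlap, so their counts cannot be separated without strand. The 3 other genes of that list in the table lay below the minimum, Ddx3y of the Y chromosome at a base mean of 0.388.

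**Figure D5:**
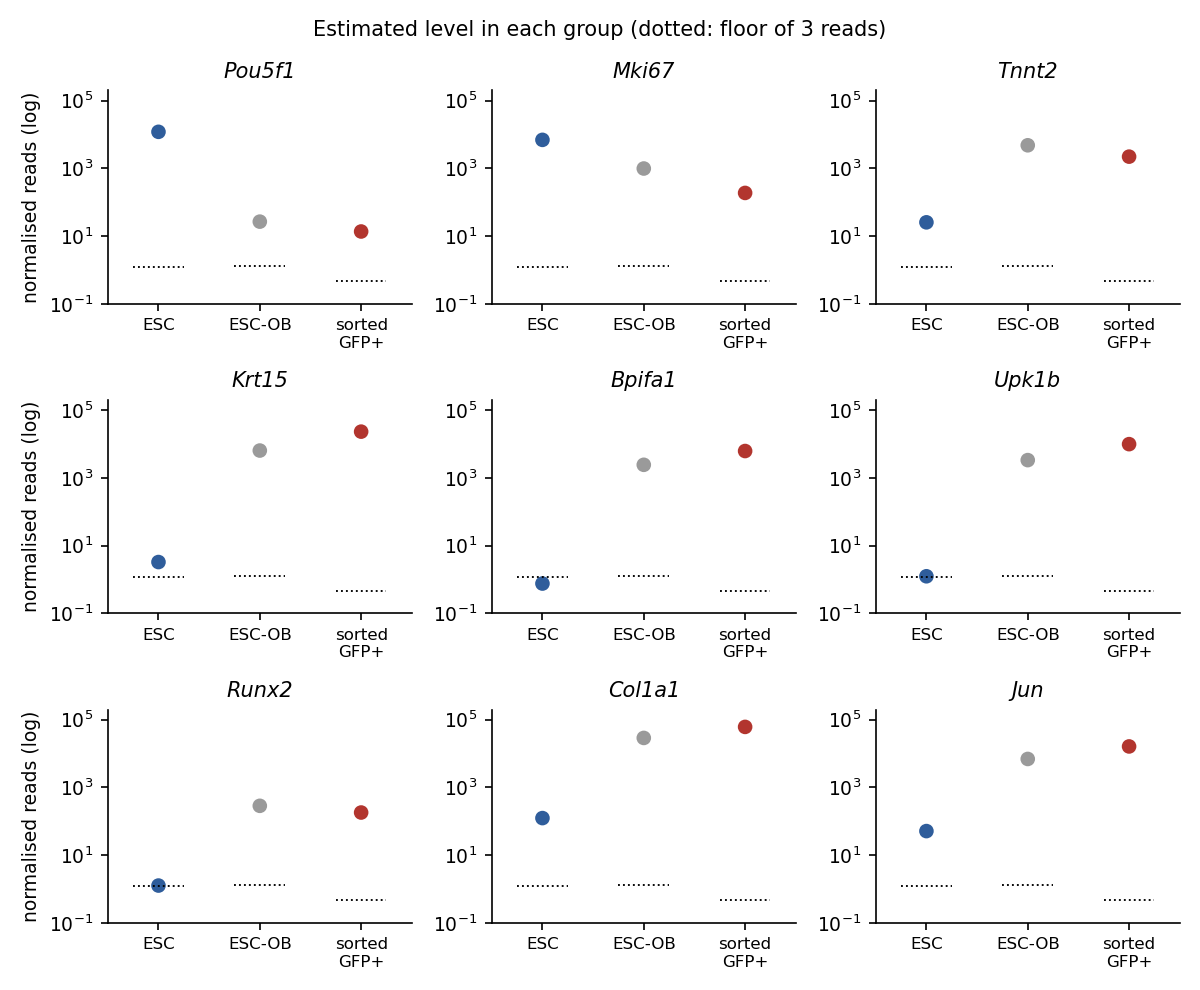
Estimated level of 9 genes in ESC, unsorted ESC-OB and sorted GFP+ cells (normalised reads, log axis, no error available); dotted lines mark the floor of 3 reads over a group. Krt15, Bpifa1, Upk1b, Col1a1 and Jun are highest in the sorted cells, Tnnt2 and Runx2 in unsorted ESC-OB, and Pou5f1 and Mki67 in ESC.

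A noncoding host gene, named after its values were seen, moved with these genes. Mir22hg, which carries the microRNA miR-22, was estimated at 27.5 in ESC, 599 in unsorted ESC-OB and 1362 in sorted cells (normalised reads) and rose by 5.63 ± 0.26 per the authors' deposited table (adjusted p = 4.97e-101). The host lies at chr11:75461539-75466690 and the mature microRNA at chr11:75463772-75463793, plus strand, on GRCm38.p6. Its sequence from RefSeq, 5′ to 3′ with the seed (bases 2 to 8) in capitals, is shown because the seed sets which messengers it can pair with.
miR-22-3p: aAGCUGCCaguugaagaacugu
The mature microRNA itself was not measured in these libraries.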

How the data were processed

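The authors deposited tables of their own comparisons, with no values per single sample. Per the submitters' processing notes the tools were STAR 2.4.2a, DESeq2 and R 3.2.2 with the mouse build mm9. Their roles, the design formula and filters are not given in the sources used here. Per the file headers, the columns hold the authors' base mean (a signal: normalised reads averaged over libraries), the log2 fold change and its standard error on that scale, the deposited Wald score, and raw and adjusted p-values. Shrinkage of the deposited folds was not tested. The estimated levels, the calls against the floor and the shares of reads rest on these folds and would carry any shrinkage. The authors' count of libraries in the fit was 9, with the ESC libraries shared by the sorted and unsorted comparisons.

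Genes at a base mean of 10 or more were counted where the authors' adjusted p was under 0.05, by direction, within symbol families and marker lists. Every ± beside a log2 fold change is the authors' standard error. Levels were estimated as the base mean split over 3 groups by the 2 log2 fold changes. Members and lists were chosen with earlier results of these data known. Named genes were the 10 largest changes above the floor and the 10 largest statistics in each direction, up to 6 members a list by size, statistic or defining role, the osteoblast regulators and the checks. Mki67, Mir22hg and some members outside this rule, named for their known role, were chosen after their values were seen. Some genes that this rule would name are not reported here. Upstream sequences matched too few genes for shares by direction. Alternatives were a stricter threshold, no base mean minimum or a higher one, a log2 change of at least 1 in size, adjustment over genes past the minimum alone, a test against a log2 change of 1, re-centring on the median gene and, added after seeing the data, scaling by total reads. The count and depth code was tested on simulated data. Python 3.11.15, numpy 2.4.6, pandas 2.3.3, scipy 1.17.1 and matplotlib 3.10.9 were used.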

Additional observations from a re-analysis of the deposited data

How the results depend on the processing

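Of 80 recounts of rises and falls under other settings, 69 stayed within 1.5 times the reported count, and 11 did not. A Wald test against an absolute log2 change of 1 or less left 4215 rises and 2962 falls over all genes, 177 falls of transcription factors, 35 of surface receptors and 27 of secreted proteins. A base mean of at least 100 left 178 rises and 39 falls of surface receptors, 281 and 27 of secreted proteins, and 145 and 20 of non-bone markers. Both settings test or keep fewer genes by construction. Of 258 recounts for 43 named genes, 257 kept their call and direction. These 43 were the genes with the largest changes or statistics, with Runx2, Sp7 and Col1a1 added. Their choice by size made that outcome likely in advance, and the other named genes were not rechecked. Sp7 lost its call in the test against a log2 change of 1. Re-centring on the median gene gave 6092 rises and 6149 falls, and scaling by total reads, chosen after seeing the data, 7090 and 5081. Of the 12084 genes called as deposited, 11584 and 11673 kept their call and direction under these scalings, and 0 turned. No paired analysis was possible because the deposited tables hold no values per sample. For the same reason leaving out a replicate was not run. The depth limits what can be said of genes under the floor in ESC, whose folds are fitted values and not bounds.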
